A study of Columba livia with 4 samples.

Results

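The H3K27me3 islands described here are stretches of 2 to under 20 kb that carry trimethylated lysine 27 of histone H3 in pigeon melanocytes. They were chosen by peak position and domain length: deposited H3K27me3 peaks of the same scaffold were joined across gaps of up to 5 kb, and domains of that length were kept on the 127 scaffolds whose highest peak end in any list, called the span here, was at least 1 Mb. There were 4360 islands among the 12074 joined domains on those scaffolds (36.1%) and among 15208 domains on all 2200 scaffolds. The other domains on the 127 scaffolds were 7244 short domains under 2 kb and 470 long domains of 20 kb or more. Peak positions in the H3K27me3 list chose the islands, and the other lists entered only through the span of a scaffold. The length, number of peaks, covered share and strength of islands, and their distances to other H3K27me3, are therefore given as a description.

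The series holds 4 samples of primary wild-type melanocytes of Columba livia, the pigment-producing cells, studied by chromatin immunoprecipitation and sequencing: 1 each for H3K27me3, for H3K27ac (acetylation of the same lysine) and for SOX10, a transcription factor, plus 1 input. Each target had 1 library, no group was treated differently from another, and no value has a replicate error. All cultures grew in Ham's F10 with fetal bovine serum at 10%, Nu-serum at 5%, the phorbol ester TPA at 85 nM, cholera toxin at 40 ng/mL and endothelin-3 at 10 ng/mL, with penicillin, streptomycin and fungizone. The labels state neither the number of birds nor their age or strain. No peak was tied to a gene, so the cell type could not be checked against marker genes, and islands are named by scaffold, start and end, counted from 1.

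Trimethylation of lysine 27 on histone H3 is written by Polycomb repressive complex 2 and bound by Polycomb repressive complex 1. In vertebrates it lies over silent developmental genes and their CpG-rich promoters, as narrow islands at some loci and as broad domains, such as the HOX clusters, at others. Acetylation of the same lysine marks active promoters and enhancers, and one histone tail cannot carry both marks at that residue. SOX10, an HMG-box factor of the neural crest, acts in the mouse at regulatory elements of pigment genes such as Mitf and Tyrp1. Each library pools many cells, so 2 marks on the same stretch in the same cell and in different cells cannot be told apart.

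The islands covered 29.0 Mb, which was 2.86% of the 1016 Mb spanned by the 127 scaffolds. They held 14115 of the 28556 H3K27me3 peaks there (49.4%) and 48.9% of the bases under such peaks, with 38.8% in long domains and 12.3% in short ones. By this rule the islands carried a larger part of the called mark than the long domains did. The split was not computed at other joining gaps or length limits. Their length ran from 2002 to 19975 bp, with a median of 5315 bp and an interquartile range of 3531 to 8568.5 bp. In the histogram of all domain lengths the islands formed a second mode, with the most domains per bin, 626, between 3.6 and 3.7 on the log10 bp scale. Few domains lay between that mode and the one of single small peaks, down to 264 in the bin from 2.9 to 3. These lengths come from joining over gaps of up to 5 kb, and only 240 islands were 1 peak. The histogram was made at that gap alone, so the part of the joining in its modes was not tested.

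**Figure D1:**
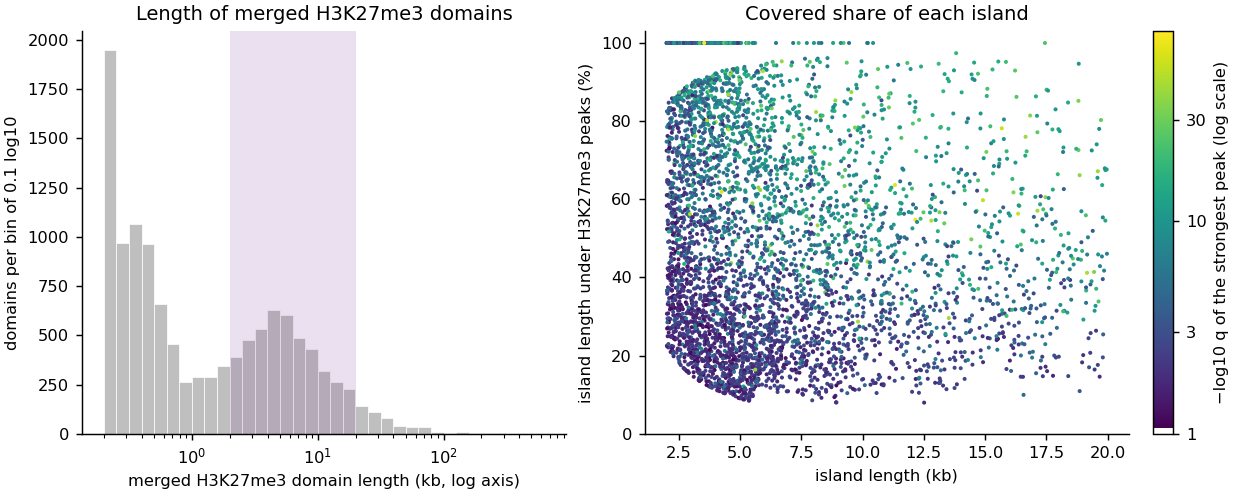
Left, number of joined H3K27me3 domains on scaffolds of at least 1 Mb against their length on a log axis, with the 2 to 20 kb range of the islands shaded. Right, 1 point per island, length (kb) against the share of that length under H3K27me3 peaks (%), coloured by the −log10 q of the strongest peak on a log scale. The points fill the range from 7.98% to 100%, and the weak islands gather at low shares.

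By the rule, most islands were strings of peaks and not single blocks. A median of 44.3% of an island lay under H3K27me3 peaks (interquartile range 26.2 to 70.6%, full range 7.98 to 100%), and the rest lay in the gaps that the joining bridged. This form depended on the construction. The median covered share was 65.7% with joining gaps of up to 2 kb and 33.5% with 10 kb. It was 93.4% for islands rebuilt from H3K27me3 peaks with a −log10 q of at least 3. Only 240 islands (5.50%) were 1 peak, 1642 (37.7%) held 2 peaks, 1074 held 3, 938 held 4 or 5, 444 held 6 to 9 and 22 held 10 to 13. Their peaks had a median width of 519 bp, against 350 bp in short domains and 686 bp in long ones. The 9755 gaps between peaks of an island had a median of 1119 bp (interquartile range 552 to 2342 bp). A single peak took up at least 50% of the length in 869 islands (19.9%), and 930 islands (21.3%) had at least 75% of their length under peaks, while 1002 (22.98%) had under 25%. The word compact thus fits about the 930 densely covered islands, and "islands" below means the rule alone.

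Islands also spanned a wide range of strength. Strength is taken here as the −log10 q of the strongest H3K27me3 peak of an island, a value of the authors' peak caller. It ran from 1.07 to 78.4 with a median of 3.59, and the fold enrichment over local background of the strongest peak by fold ran from 2.66 to 26.2 with a median of 4.17. In 855 islands (19.6%) no peak reached a −log10 q of 2, and in 731 (16.8%) at least 1 peak reached 10. Stronger islands were more fully covered (Spearman's rho 0.63 across 4360 islands) and somewhat longer (rho 0.27), whereas length and covered share had a rho of −0.18. These 3 correlations are a description across islands of the same library, which are not replicates. Split into 5 equal groups by strength, called quintiles here, the lowest quintile had a median covered share of 24.9% and a median gap of 2012 bp, and the highest 72.3% and 735 bp.

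Islands near the length limits were set beside their neighbours beyond the limits. The 151 islands of 2 to under 2.2 kb had a median covered share of 61.7% and a median strength of 2.53, and the 160 domains of 1.8 to under 2 kb just outside had 60.4% and 2.44. At the upper limit the 88 islands of 18 to under 20 kb held a median of 8 peaks over 43.6% of their length, with a median strength of 8.42. The 63 domains of 20 to under 22 kb also held a median of 8 peaks, over 42.5%, with a median strength of 6.32. H3K27ac touched 10.6% of the islands just inside the lower limit and 14.4% of the domains just outside it, and 21.6% and 17.5% inside and outside the upper limit. A SOX10 summit lay in 0.662% and 0.625% at the lower limit, and in 9.09% inside and 17.5% outside the upper one.

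The strongest islands show how varied the form is even at the top of the range. The island with the highest −log10 q was a single peak of 3537 bp on AKCR02000088.1 from 143468 to 147004, at 16.7-fold and a −log10 q of 78.4. One H3K27ac peak at 4.35-fold lay entirely inside it and took up 11.8% of its length. The next, on AKCR02000005.1 from 3688145 to 3700300, had the highest fold of any island, 26.2, in 5 peaks over 54.8% of 12156 bp, with 3.67% under H3K27ac at 3.16-fold. The island on AKCR02000004.1 from 17006510 to 17017832 had 5 peaks up to 23.8-fold and no H3K27ac peak nearer than 199.293 kb. The fourth, on AKCR02000048.1 from 5246828 to 5251076, was a pair of peaks at 17.4-fold and 17.6-fold, with H3K27ac at 4.25-fold over 7.30% of its length. It lay at the end of that scaffold's span of 5.25 Mb, so whether it is cut off there is not known. None of the 4 held a SOX10 summit, and 3 of the 4 had a small H3K27ac peak inside. In the whole highest quintile by strength, 2.18% of the 872 islands held a summit and 20.9% touched H3K27ac. The placed share for a summit in that quintile was 4.65%, and 3.85% of all islands held one. As most islands held no summit, its absence from these 4 says little by itself.

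The 4 longest islands measured 19.91 to 19.975 kb and held 4 to 9 peaks over 46.1 to 67.6% of their length. They reached 5.96-fold to 8.21-fold at a −log10 q of 7.12 to 14.2, and held neither an H3K27ac peak nor a SOX10 summit. Among all 812 islands of 10 to under 20 kb, 17.2% touched H3K27ac and 9.61% held a SOX10 summit, so most lacked each of them too. The islands with most peaks, 13 each, lay on AKCR02000011.1 from 3568082 to 3586992 and on AKCR02000002.1 from 8946390 to 8966194. The first lay 5.369 kb from a long domain, just past the joining limit, and reached 9.68-fold. The second lay 7817 kb from any long domain, reached only 3.97-fold and held 1 SOX10 summit. The other 2 islands named for their number of peaks, 12 each, reached 5.25-fold and 4.37-fold.

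Islands lay near other H3K27me3. Because the same list chose the islands, these distances are a description. The nearest other H3K27me3 domain of any length was a median of 11618 bp away. Over all possible positions of the same islands on their own scaffolds, called placed positions here, the median was 45625 bp. Both exceed 5 kb by the rule. Another domain lay within 10 kb of 43.9% of islands (exact 95% binomial interval 42.4 to 45.4%), against 10.8% of placed positions. Such intervals cover counting error only, and neighbouring islands are not independent.

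Long domains were also closer than placed positions would put them. A long domain lay within 50 kb of 612 islands, 14.04% (interval 13.02 to 15.1%), against 5.44% of placed positions more than 5 kb from every long domain, a ratio of 2.58. Among all 11604 domains under 20 kb the share was 10.3%. The median distance was 632029 bp over the 4023 islands with a long domain on their scaffold, against 1034454 bp when placed, and 337 islands lay on 44 scaffolds without any long domain. The ratio was 3.03, 3.17, 2.53, 2.22 and 1.88 from the lowest to the highest quintile by strength, and 2.27, 2.58 and 3.11 for islands of 2 to under 5, 5 to under 10 and 10 to under 20 kb. The most fully covered islands were least often near a long domain, with 7.63% of those covered to 75% or more, against 17.7% of those covered to 25 to under 50%. The excess over placement depended on the distance asked for, with a log2 ratio of 1.86 at 20 kb, 1.37 at 50 kb and 0.76 at 200 kb. It fell to 0.63 when positions inside and beside long domains were also allowed, which no island can take.

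**Figure D2:**
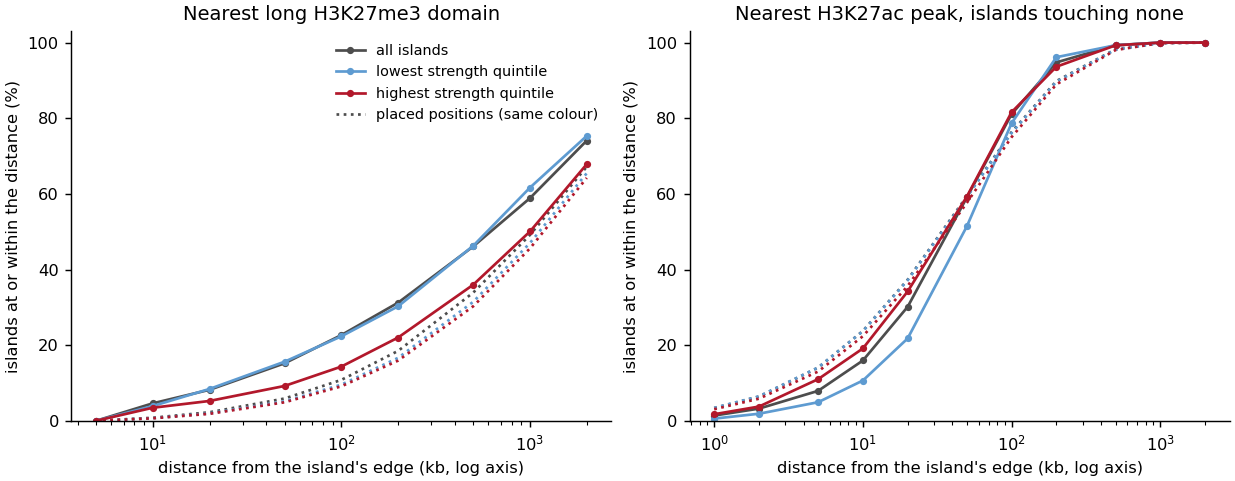
Share of islands (%) at or within a distance of the nearest long H3K27me3 domain (left, islands with a long domain on their scaffold) and of the nearest H3K27ac peak (right, islands touching none), against the distance in kb on a log axis. Solid lines with points are observed and dotted lines are placed positions, for all islands and for the lowest and highest quintile by strength. On the left the observed lines lie above the dotted ones; on the right the lowest quintile lies below its dotted line at 10 kb, 10.7% against 23.7%.

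The comparison with H3K27ac asked how often the H3K27me3 islands met peaks of the acetylated mark. At least 1 base of 548 islands lay under an H3K27ac peak, which is 12.6% (interval 11.6 to 13.6%). Of all 12074 H3K27me3 domains, 12% touched H3K27ac, and the share of placed positions that would touch it was 16.3%. The islands thus met H3K27ac at 0.772 of the placed share, a log2 ratio of −0.37, and at 0.741 of the share over positions 20 to 200 kb from each island, 17.0%. Short domains met it more often than placed, 10.4% against 5.06%, and long domains less often, 31.7% against 48.1%. The island deficit was nearly gone, a log2 ratio of −0.05 (−0.19 to 0.09), when islands were rebuilt from H3K27me3 peaks with a −log10 q of at least 3, and it grew to −0.77 when H3K27ac peaks had to reach 3.

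The share touching H3K27ac, set against placement, ranged more widely over the strength of islands than over their length. In the lowest quintile by strength only 18 of 872 islands touched H3K27ac, 2.06% (interval 1.23 to 3.24%), against 12.95% of their placed positions. In the second quintile the share was 6.31% against 15.5%, in the third 16.3% against 17.6%, and in the fourth 17.3% against 17.4%. In the highest quintile 182 of 872 islands touched it, 20.9% (18.2 to 23.7%), against 17.9%. The ratio of observed to placed thus went from 0.159 to 1.17. The pattern was nearly the same when islands were ranked by fold, with 2.06% in the lowest quintile and 20.4% in the highest, and with positions 20 to 200 kb away as the reference, with ratios of 0.170 and 1.12.

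The 2 ends of that range differed in how firm they were. The deficit of the lowest quintile had a log2 ratio of −2.65 and was −2.77 with H3K27ac peaks of −log10 q at least 3. The small excess of the highest quintile, a log2 ratio of 0.23 (0.03 to 0.41), turned to −0.33 (−0.61 to −0.06) under that stricter H3K27ac list, with 99 islands in place of 182. It was 0.20 (−0.003 to 0.38) ranked by fold and 0.17 (−0.03 to 0.35) against positions 20 to 200 kb away. On scaffolds of at least 10 Mb it was 0.26 (−0.04 to 0.54), and without AKCR02000001.1 it was 0.23 (0.03 to 0.42). Ranked by covered share instead, the lowest quintile had −0.56 and the highest −0.10, a smaller spread between the ends than under q or fold. These quintiles and their alternatives were chosen after the data were seen.

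**Figure D3:**
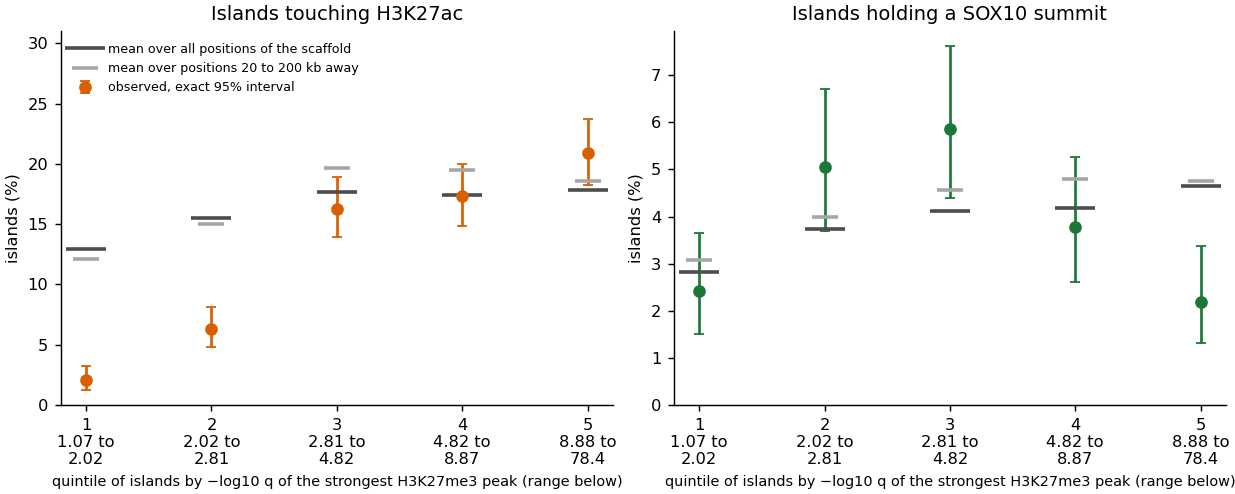
Share of islands (%) that touch H3K27ac (left) and that hold a SOX10 summit (right), for quintiles of the islands by the −log10 q of their strongest H3K27me3 peak (872 islands each, range printed below). Points are observed shares with exact 95% binomial intervals, dark lines the mean over all positions of the scaffold and light lines the mean over positions 20 to 200 kb away. H3K27ac goes from 2.06% to 20.9%, and SOX10 is highest in the third quintile at 5.85% and lowest in the highest quintile at 2.18%.

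The contrast by strength was present at each length. Among islands of 2 to under 5 kb, 2.31% of 563 in the lowest quintile touched H3K27ac against 10.6% placed, and 18.6% of 269 in the highest quintile against 10.2% placed. Among islands of 5 to under 10 kb the shares were 1.88% against 16.1% and 21.1% against 16.7%. Among islands of 10 to under 20 kb none of 43 in the lowest quintile touched it, which allows up to 8.22% by the exact interval, against 24.4% placed, and 22.9% of 271 in the highest quintile did, against 26.9%. Over all strengths the ratio to placement was 0.988, 0.721 and 0.621 from the short to the long islands. The 240 islands made of 1 peak touched H3K27ac in 15.4% (11.1 to 20.6%) against 10.3% placed, and the 466 islands with 6 or more peaks in 16.3% against 28.6%.

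The acetylation inside islands was sparse. H3K27ac peaks covered 1.803% of the length of the islands, where the scaffolds on which they lie, weighted by island length, had 4.15%. They covered 2.80% of the outer 10% of the length at the 2 ends, against 1.61% of the bases within 2 kb outside. In the 10% on either side of the centre the value was 1.54%. The inside was thus not less acetylated than the nearest flank at its edges. The islands met 834 H3K27ac peaks, of which 601 lay wholly inside, 231 crossed an edge and 2 spanned a whole island. These peaks had a median width of 451 bp and a median of 3.62-fold, against 739 bp and 3.81-fold for all 26739 H3K27ac peaks on these scaffolds. In the islands that touched H3K27ac, 60.8% of the acetylated bases lay under H3K27me3 peaks, which covered 47.5% of those islands. The acetylation therefore did not sit mainly in the gaps. In the highest quintile by strength 85.1% of the acetylated bases lay under H3K27me3 peaks that covered 61.6%, 214 of 251 H3K27ac peaks lay wholly inside, and the median peak was 401 bp at 3.46-fold. In the lowest quintile 36.8% lay under H3K27me3 peaks that covered 24.8%, and only 13 of 29 H3K27ac peaks lay wholly inside.

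A low level of H3K27ac reached well beyond the islands. H3K27ac covered 1.61% of the bases within 2 kb outside an island edge, 2.26% at 5 to 10 kb, 2.58% at 10 to 20 kb, 3.30% at 20 to 50 kb and 3.96% at 50 to 100 kb. These zones were summed over islands, so shared flanks count more than once, and other H3K27me3 domains were not left out. Another domain lay within 10 kb of 43.9% of islands and within 50 kb of 84.6%. The part of those domains in the flank values was not tested. Around the lowest quintile the values were 0.672% within 2 kb, 1.38% at 10 to 20 kb and 3.22% at 50 to 100 kb, against a scaffold level of 3.82%. Around the highest quintile they were 1.58%, 2.70% and 3.77%, against a scaffold level of 3.86%. Both quintiles, and all islands with a scaffold level of 4.15%, stayed below that level at every distance measured. The level is weighted by island length, whereas the flanks of every island count alike and stop at scaffold ends. The part of this in the small differences at 50 to 100 kb was not tested. Of the 3812 islands that touched no H3K27ac, 15.9% had a peak of it within 10 kb (14.8 to 17.2%), against 23.8% of placed positions, and the median distance was 38179.5 bp against 34228 bp placed. For the lowest quintile the median was 48789.5 bp against 34518 bp, and for the highest quintile 35544.5 bp against 36841 bp. Within 100 kb the order was the other way, with 81.1% of those 3812 islands having a peak of H3K27ac against 76.3% of placed positions. There the lowest quintile had 78.7% against 76.1%, and the highest 81.6% against 75.0%.

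**Figure D4:**
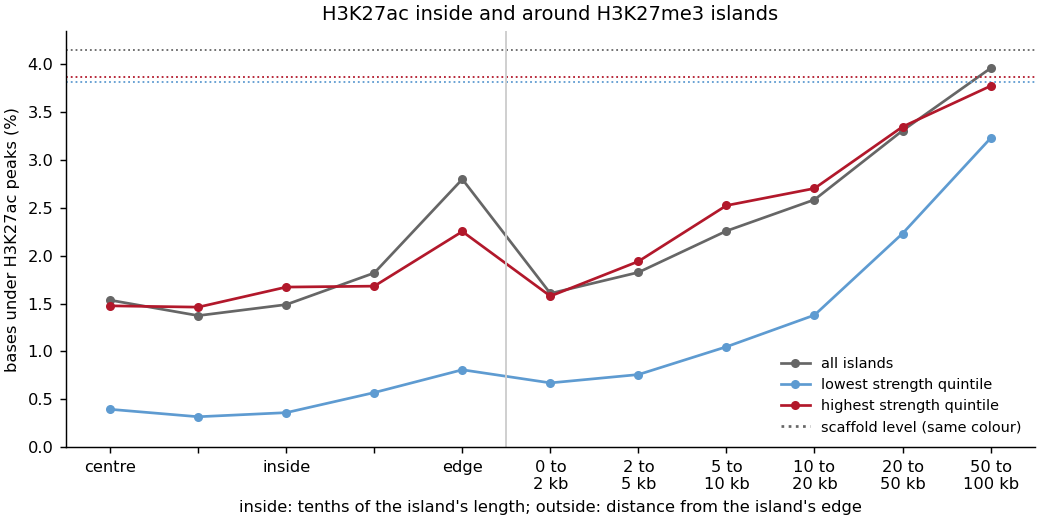
Share of bases under H3K27ac peaks (%) inside islands, in steps of 10% of their length from the centre to the edge, and outside, by distance from the edge in kb. The outside zones include other H3K27me3 domains. Lines show all islands and the lowest and highest quintile by strength, and dotted lines of the same colour the level of their scaffolds weighted by island length (4.15%, 3.82% and 3.86%). The lowest quintile stays under 1% inside and within 5 kb, and the other lines stay under 3% up to 20 kb away.

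A minority of islands were acetylated over much of their length. At least 10% of the length lay under H3K27ac in 291 islands and at least 50% in 29, of which none was in the highest quintile by strength. Asked at 10% of the length, the log2 ratio to placement was −0.67. The 4 with the largest acetylated share had H3K27me3 of 3.47-fold to 5.31-fold at their strongest peak, around the median of all islands. The island on AKCR02000113.1 from 1519198 to 1521828 lay wholly under 1 H3K27ac peak of 5.98-fold, with H3K27me3 up to 4.04-fold. The island on AKCR02000061.1 from 3350221 to 3355164 also lay wholly under 1, at 17.9-fold, with 2 H3K27me3 peaks of 3.28-fold and 3.47-fold over 12.9% of its length. The island on AKCR02000010.1 from 6324121 to 6329828 was acetylated over 97.6% at 13.8-fold, with H3K27me3 up to 5.31-fold and a −log10 q of 6.39, in the fourth quintile by strength. The island on AKCR02000113.1 from 1497957 to 1500188 was acetylated over 94.0% at 3.35-fold, with H3K27me3 at 3.702-fold. All 4 lay 16.243 to 60.863 kb from a long H3K27me3 domain. Of all islands with a long domain on their scaffold, 22.7% had one within 100 kb. The 2 islands on AKCR02000113.1 are not separate cases, as that scaffold has 8 long domains in a span of 1.56 Mb. Whether acetylated islands lie nearer to long domains was not tested.

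SOX10 presence was then compared with placement. A SOX10 summit lay in 168 islands, 3.85% (3.30 to 4.47%), and 5 of these held 2, for 173 summits in all. Of all 12074 domains 2.58% held one, and 3.90% of placed positions would. The ratio of 0.988 over all islands combined groups with ratios above and below 1. Islands with under 25% and with 25 to under 50% of their length under H3K27me3 peaks held SOX10 at 1.28 and 1.33 times the placed share, and those with 50 to under 75% and with 75% or more at 0.544 and 0.439 times. By strength the ratio was 0.854, 1.35, 1.42, 0.903 and 0.469 from the lowest to the highest quintile, and in the highest 19 of 872 islands held a summit, 2.18% (1.32 to 3.38%) against 4.65% placed. By length it was 0.546 for 2 to under 5 kb, 1.08 for 5 to under 10 kb and 1.162 for 10 to under 20 kb. Against positions 20 to 200 kb away the ratio was 0.908 for all islands. In the same orders it was 1.19, 1.17, 0.506 and 0.439 by covered share and 0.781, 1.26, 1.28, 0.787 and 0.458 by strength. By length it was 0.517, 1.02 and 1.03. In each of these groups with a ratio above 1, the share over those nearer positions lay within the observed interval.

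The balance over all islands rested on the joining distance. With gaps of up to 2 kb the log2 ratio was −0.55 (−0.84 to −0.27), and with H3K27me3 peaks of −log10 q at least 3 it was −0.60 (−1.03 to −0.21), against −0.02 (−0.24 to 0.20) by the rule. It also differed between scaffolds, with ratios of 0.767, 1.02 and 1.83 on those of 1 to under 10, 10 to under 50, and 50 Mb or more. The last class is 3 scaffolds, on which 38 of 725 islands held a summit, 5.24% (3.74 to 7.12%) against 2.86% placed. Whether these differences between scaffold classes exceed those between libraries was not tested, as there was 1 library.

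Across all islands together, most summits lay in the gaps. Of the 173 summits 34 were under an H3K27me3 peak, 19.7% (14.01 to 26.4%), though peaks covered 46.6% of the summed island length. The density was 2.51 summits per Mb under H3K27me3 peaks (exact 95% Poisson interval 1.74 to 3.51), against a scaffold level of 6.43, and 8.98 per Mb in the gaps (7.55 to 10.6), against a level of 6.59. The ratio to the scaffold level was 0.391 under peaks and 1.36 in gaps. Outside the islands the density was 7.78 per Mb within 2 kb of an edge, which lies inside the interval of the gaps. It was 6.34 at 2 to 5 kb and 5.29 at 5 to 10 kb. Long domains had 2.05 per Mb under peaks and 15.6 per Mb in gaps. Under peaks the ratio was below 1 in every quintile by strength, at 0.146, 0.184, 0.491, 0.520 and 0.368 from the lowest to the highest. The ratios of the lowest and the second quintile rest on only 1 and 2 summits. In the gaps the ratio was 1.02, 1.81, 1.84, 1.22 and 0.514 from the lowest to the highest quintile. In the strongest islands the gaps held only 8 summits in 2.47 Mb. In that quintile 11 of 19 summits lay under H3K27me3 peaks, 57.9% (33.5 to 79.7%). The density there was 2.27 per Mb under peaks (1.13 to 4.05), against a scaffold level of 6.15. In the gaps it was 3.23 per Mb (1.40 to 6.37), an interval that includes their scaffold level of 6.29. The outer 10% of the length at the 2 ends held 11 summits, and the 10% on either side of the centre, of the same summed length, held 49. An island starts and ends with a peak by the rule, and the part of that in these counts was not tested.

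Summits in islands were less often acetylated than those outside. Of the 173, 20 lay under an H3K27ac peak, 11.6% (7.21 to 17.3%), against 2917 of 5612 summits outside islands, 52.0% (50.7 to 53.3%). H3K27ac covered 1.803% of the length of the islands and 3.37% of the span of all 127 scaffolds, islands included. Both shares of summits thus lay above the share of bases. None of the 20 was in the lowest or the highest quintile by strength, which held only 21 and 19 of the 173 summits. The islands therefore fell into 3678 with neither H3K27ac nor SOX10, 514 with H3K27ac alone, 134 with SOX10 alone and 34 with both. The islands with a summit were longer than the others, with a median of 9794.5 bp against 5195.5 bp, and less covered, 32.3% against 45.0%.

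The island summits were about as enriched as others. Their median fold was 3.48 (interquartile range 2.88 to 4.08), against 3.34 (2.83 to 3.99) for the 5612 summits elsewhere. A median of 30 fragments stood over a local background of 7.99 in islands, and 33 over 8.98 elsewhere. Under H3K27me3 peaks the 34 summits had a median of 20.5 fragments over 4.31, and the 139 in gaps 33 over 8.98. The fold was thus alike, 3.57 and 3.45, on a lower background under the H3K27me3 peaks. The part of that lower background in the number of summits called there was not tested. The highest fold at a summit in an island was 10.4, in a gap.

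Of the 5 islands with 2 summits, the 4 with the strongest H3K27me3 are described, and they differed from one another. That on AKCR02000122.1 from 785927 to 800228 was also 84.6% acetylated, in 3 H3K27ac peaks up to 8.23-fold, with 7 H3K27me3 peaks over 18.9% of 14302 bp, and its summits were at 6.19-fold and 3.91-fold. That on AKCR02000034.1 from 6423025 to 6426406 held both summits, at 3.56-fold and 4.59-fold, at 1 of its 2 H3K27me3 peaks, and 1 of the summits also lay under a small H3K27ac peak at 3.19-fold. That on AKCR02000086.1 from 404467 to 417164 had summits of 3.84-fold and 3.43-fold in a gap, no H3K27ac within 50.165 kb, and 5 H3K27me3 peaks over 17.1% of 12698 bp. That on AKCR02000028.1 from 7664550 to 7668528 had summits of 2.26-fold and 2.07-fold, at a −log10 q of 4.13 and 17.2, so the lower fold had the higher q. Each of these summits lay under both an H3K27me3 peak and an H3K27ac peak, so peaks of all 3 lists met at the same places. The H3K27me3 peaks there were at 3.13-fold and 2.05-fold, with a −log10 q of 2.62 and 2.09. A low SOX10 fold with a high q means many fragments over a high local background. The part of background in this meeting of peaks was not tested. H3K27ac covered 33.2% of that island's length. Acetylation beside SOX10 thus ranged from most of the island to none nearby.

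**Figure D5:**
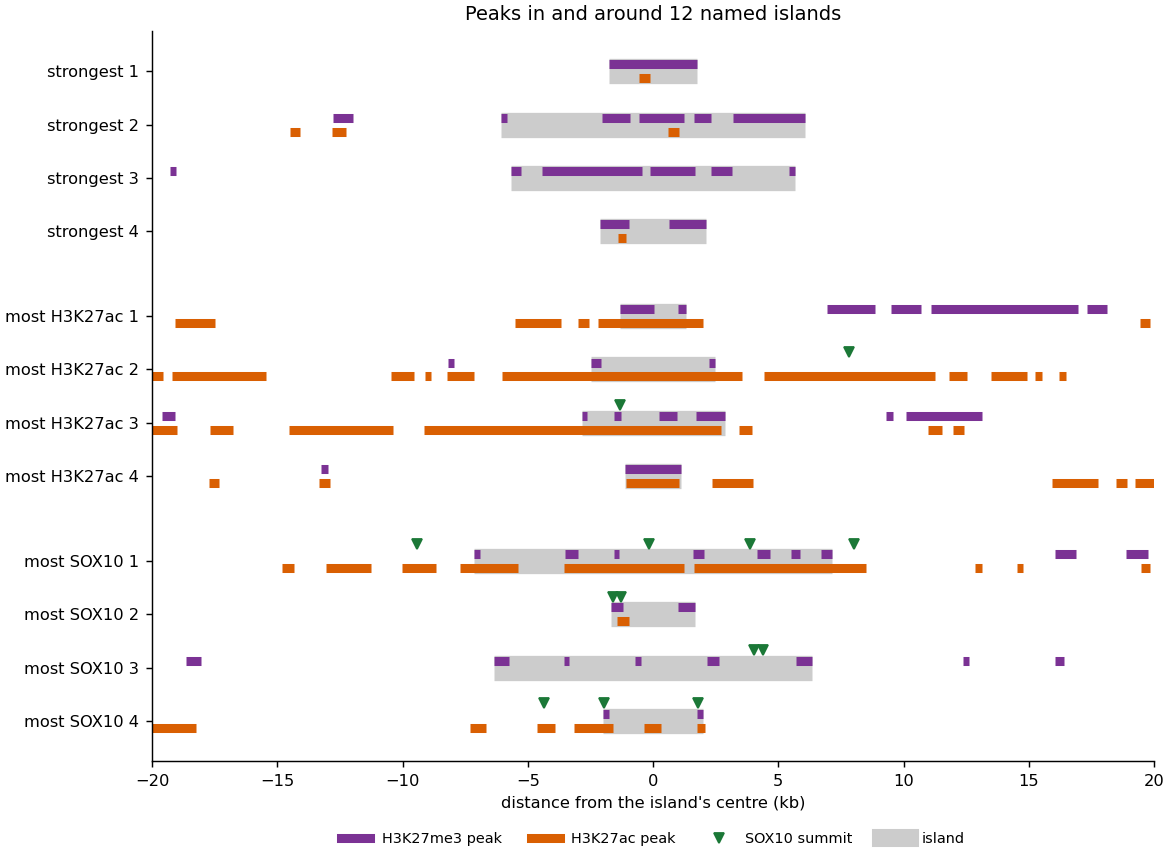
H3K27me3 peaks (purple), H3K27ac peaks (orange) and SOX10 summits (green triangles) within 20 kb of the centre of 12 islands (grey): the 4 with the highest −log10 q, the 4 with the largest share under H3K27ac and the 4 with most SOX10 summits. The horizontal axis is the distance from the island's centre in kb. The strongest islands hold at most 1 small H3K27ac peak, whereas in the first 3 of the acetylated group the H3K27ac peak reaches past an edge.

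Islands were spread over 126 of the 127 scaffolds. Their number per Mb ran from 0 to 21.6 with a median of 4.20, and was 5.31 on the 102 scaffolds of 1 to under 10 Mb, 4.19 on the 22 of 10 to under 50 Mb and 2.99 on the 3 largest. Across the 127 scaffolds, each counted once, density and span had a Spearman's rho of −0.03, so no order by span showed there. The densest was AKCR02000117.1 with 31 islands in 1.43 Mb, AKCR02000001.1 had the most with 275, and AKCR02000115.1, with a span of 1.47 Mb, had none. Scaffolds with more islands per Mb also had more of their span under H3K27ac (Spearman's rho 0.60 across 127 scaffolds of the same libraries, a description). The placed share takes this into account, as each island is placed on its own scaffold. The share of islands touching H3K27ac was 17.95%, 8.82% and 7.72% in the 3 classes of span, against 21.1%, 13.5% and 10.4% placed, so the observed share was below the placed one in each.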

How the data were processed

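Per the labels' protocols, crosslinking of the primary pigeon melanocytes took 15 min in 1% formaldehyde, sonication left fragments averaging 300 to 500 bp, and sequencing gave single-end reads of 75 nt. Tools in the submitters' processing notes are MACS3 3.0.0, SAMtools 1.16, Bowtie2 2.2.9 and bcl2fastq 2.20, with no settings. The authors deposited 1 peak list per immunoprecipitated library, narrow for SOX10 and broad for both marks, and no file of the input was used here. SOX10 peak names hold keepdupauto. What served as control, which build was used and how the histone lists treated duplicates is not given in the sources used here. For each peak the authors deposited a fold enrichment (a ratio to local background), a p-value and a q-value as −log10, and a score derived from that q, which was not used. For SOX10 these belong to the summit, whose offset they also deposited, and for the marks they are averages over the region. The largest q present was 0.0965 in the H3K27me3 list, 0.0968 in the H3K27ac list and 0.0462 in the SOX10 list. Fold and q are the authors' values and rank peaks within a list.

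Scaffold names are those of the AKCR02 assembly. No sequence or gene annotation of that assembly was used here. Positions were converted to count from 1. H3K27me3 peaks were joined over gaps of up to 5 kb, and an overlap meant at least 1 shared base. The placed share is the exact mean over every position an island could take on its own scaffold up to the span, computed from interval lengths without random draws. Runs of unknown bases were not masked. The placed share is a description beside the observed one, whose exact 95% Clopper-Pearson interval covers counting error only. With 1 library per target no test across samples could be made. SOX10 fragments at a summit were solved from fold, (fragments + 1) / (background + 1), and the Poisson p, with a largest error of 0.000645 in −log10 p. Depth in total reads is unknown here. The islands named are the 4 longest, the 4 with most peaks, the 4 with the highest −log10 q, the 4 with the largest share under H3K27ac and the 4 with most SOX10 summits. The members, named islands and comparisons were chosen with earlier results of these data known. Alternatives were other joining gaps, length limits, peak thresholds, scaffold limits and reference positions. Python 3.11.15, numpy 2.4.6, scipy 1.17.1 and matplotlib 3.10.9 were used, and the scripts were tested on simulated data.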

Additional observations from a re-analysis of the deposited data

How the results depend on the processing

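No paired analysis was possible because the 3 lists come from 1 library apiece, and no replicate could be left out. Of 69 alternatives, 40 kept the value within its interval or, for the number of islands, within 1.5 times, 27 moved it and 2 reversed it. The alternatives for quintiles by strength and for peaks and gaps were chosen after the data were seen. Where no construction is named, the cause was not tested. Islands numbered 2138 from H3K27me3 peaks with −log10 q of at least 3 and 2483 on scaffolds of at least 10 Mb, both by fewer peaks or scaffolds. Their median covered share was 65.7% with gaps of up to 2 kb, 33.5% with 10 kb, 93.4% from the stricter H3K27me3 peaks and 42.1% from 3 kb of length up. The log2 ratio of islands touching H3K27ac was −0.048 from the stricter H3K27me3 peaks, −0.25 up to 10 kb of length, −0.57 on scaffolds of at least 10 Mb, −0.13 on all scaffolds, −0.67 at 10% of the length and −0.77 with stricter H3K27ac peaks. For SOX10 it was −0.55 with 2 kb gaps, −0.60 from the stricter H3K27me3 peaks and 0.30 on scaffolds of at least 10 Mb. For long domains within 50 kb it was 1.54 and 0.95 with gaps of 2 and 10 kb, 1.88 and 0.97 on scaffolds of at least 10 Mb and on all, 0.63 over every position, 1.86 at 20 kb and 0.76 at 200 kb. The lowest quintile touching H3K27ac had −0.56 when ranked by covered share and −4.16 on scaffolds of at least 10 Mb, from 3 islands, and the highest quintile reversed to −0.10 when ranked by covered share and to −0.33 with stricter H3K27ac peaks. The SOX10 log2 density ratio under H3K27me3 peaks was −2.04 for SOX10 peaks with −log10 q of at least 5, and in the gaps 0.87 from the stricter H3K27me3 peaks and 0.80 on scaffolds of at least 10 Mb. Without AKCR02000001.1, which has the most islands, no ratio to placement or to the scaffold level moved past its interval; the number of islands and the covered share were not recomputed without it. Total depth is unknown, so an island without a peak of H3K27ac or SOX10 was only without one at the depth of that library.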
